A study of Rattus norvegicus with 18 samples.

Results

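Genes of neuronal calcium signalling, 8 in all, were followed through the 18 libraries: the calcium/calmodulin-dependent kinases Camk2a, Camk2b and Camk4, the calcineurin catalytic subunit Ppp3ca, the calmodulin-binding protein Nrgn, the calcium sensor Hpca, and the calcium buffers Calb1 and Calb2. They were chosen by name, with earlier results of these data known, and 8 of the 31463 rows of each count table matched. The further gene lists were chosen with the same knowledge, so that counts set beside the share of all genes are a description. All 8 passed the filter on low counts, which left 14398 genes to test.

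The libraries were made from primary neuroglial cultures of the cortex of newborn Wistar rats at day 10 in vitro, grown in B-27 supplemented medium with cytosine arabinoside, an agent that limits dividing cells such as glia, in every group. There were 6 groups of 3 libraries, Control, Glutamate, Memantine, Glutamate_vesicles, Glutamate_secret and Glutamate_BPC. RNA was taken 4 h after the excitotoxicity model, in which all groups except Control received 100 µM glutamate. The Control cultures were intact and received no glutamate. Memantine, a blocker of the NMDA receptor, was used at 100 µM as the positive control, and by the design and methods it was given together with glutamate although its label names memantine alone. The remaining 3 groups received vesicles or other secreted material of glial progenitor cells, derived from human induced pluripotent stem cells, on the day before glutamate, and Glutamate_secret and Glutamate_BPC keep their labelled names because the protein fraction and the whole secretome cannot be assigned to them from the labels.

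When calcium enters a neuron, it binds calmodulin, and the complex switches on the CaM kinases and the phosphatase calcineurin, which then act on receptors, ion channels and transcription factors such as CREB and NFAT. Camk2a and Camk2b encode subunits of the CaMKII holoenzyme, the abundant kinase of the postsynaptic density, and Camk4 encodes a kinase found largely in the nucleus that phosphorylates CREB. Nrgn (neurogranin) holds calmodulin at low calcium, Hpca (hippocalcin) moves to membranes when it binds calcium, and Calb1 (calbindin) and Calb2 (calretinin) bind free calcium and label subclasses of neurons.

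Promoter windows, from 250 bases before to 50 bases after the gene start, were found for 6 of the 8 genes in a RefSeq table of the assembly GRCr8. This is another build than the rn6 named in the submitters' processing notes, and the positions given apply to GRCr8 alone. The windows of both CaMKII subunits are shown because both genes belong to 1 holoenzyme and their windows differ in composition. The Camk2a window lies at chr18:56648930-56649229 on the + strand and the Camk2b window at chr14:85147895-85148194 on the - strand, both written 5′ to 3′, with the letters TGACG on either strand in capitals in Camk2a and GGGCGG on either strand in capitals in Camk2b.
Camk2a: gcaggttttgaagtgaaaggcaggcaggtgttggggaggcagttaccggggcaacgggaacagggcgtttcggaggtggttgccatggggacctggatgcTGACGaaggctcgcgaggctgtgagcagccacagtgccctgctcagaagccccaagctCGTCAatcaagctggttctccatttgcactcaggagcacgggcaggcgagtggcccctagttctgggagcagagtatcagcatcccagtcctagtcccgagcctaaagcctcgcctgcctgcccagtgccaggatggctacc
Camk2b: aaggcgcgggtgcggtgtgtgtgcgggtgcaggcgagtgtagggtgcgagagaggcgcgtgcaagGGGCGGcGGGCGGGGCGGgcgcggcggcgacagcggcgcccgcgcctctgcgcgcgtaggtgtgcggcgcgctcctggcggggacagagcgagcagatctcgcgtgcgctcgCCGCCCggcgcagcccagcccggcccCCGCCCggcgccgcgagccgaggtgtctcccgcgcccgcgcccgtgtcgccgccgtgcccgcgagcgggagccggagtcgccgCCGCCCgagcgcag
TGACG is the core of the cAMP response element that CREB binds, and GGGCGG is the GC box bound by Sp1. Camk2a held 2 matches to TGACG and Hpca 1, and the windows of Camk2b, Camk4, Ppp3ca and Nrgn held 0, against a share of 21.2% of all 33469 promoter windows with a match. None of the 6 windows held the full palindrome TGACGTCA, which contains TGACG and occurs in 1.83% of all windows. GGGCGG matched 6 times in Camk2b, 2 times in Nrgn and 1 time in Ppp3ca, and 33.1% of all windows held it. The Camk2b matches that start at bases 73 and 78 of the window overlap by 1 base. The GC content of the window was 81.3% in Camk2b and 61.3% in Camk2a, against a median of 51.7% over all windows. These matches describe letters in a window and were not tested for binding.

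Library totals ran from 8409574 to 17206354 estimated counts. Ribosomal RNA took 3.04% to 43.0% of a library, with the highest share in Control 1, which also had the lowest total and the fewest genes detected (14318). The labels give neither the culture nor the day of a library. The study describes repeats on unrelated cultures. It also describes a removal of day effects before a clustering plot, and names no day term for its test of expression. The sources do not tie libraries to days, so that a day could not be fitted. The p-values therefore measure the spread between these libraries, which may be technical. Levels are given as CPM, counts scaled to a common library size, after TMM scaling of the library sizes. All 10 pan-neuronal and all 7 astrocyte markers passed the filter, as the label of a neuroglial culture implies, while the 5 endothelial markers found in the files summed to at most 4.21 CPM in any library.

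Camk2b showed the most regular separation of the kinases. Its CPM was 334, 460 and 331 in Control libraries 1, 2 and 3, and 161, 82.8 and 105 in Glutamate. In Memantine it was 528, 426 and 79.0. It was 124, 88.0 and 86.3 in Glutamate_vesicles, 135, 65.1 and 99.9 in Glutamate_secret, and 131, 94.3 and 89.2 in Glutamate_BPC. Every Control library lay above every library of the 4 glutamate groups without memantine, and Memantine was divided, with libraries 1 and 2 within or above the Control range and library 3 below all Glutamate libraries. Ordered by group mean, Control (375 ± 73.3 CPM, SD, n = 3) stood first, then Memantine (344 ± 235), Glutamate (116 ± 40.2), Glutamate_BPC (105 ± 23.1), Glutamate_secret (100 ± 34.9) and Glutamate_vesicles (99.3 ± 21.0), and the ranges of every neighbouring pair overlapped.

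Camk2a, the other CaMKII subunit, was measured on far fewer reads, 5 to 1096 counts in a library. Its CPM was 8.28, 26.5 and 24.4 in Control and 2.32, 6.29 and 1.56 in Glutamate. Memantine gave 6.98, 60.9 and 1.08 CPM. The values were 1.79, 6.82 and 2.92 in Glutamate_vesicles, 3.15, 4.42 and 0.905 in Glutamate_secret, and 1.99, 2.48 and 2.17 in Glutamate_BPC. The Control libraries stood above all libraries of those 4 glutamate groups here too. Memantine held both the highest of the 18 values, in library 2, and a value near the lowest, in library 3. By group mean the order was Memantine, Control, Glutamate_vesicles, Glutamate, Glutamate_secret and Glutamate_BPC, and Control and Glutamate_vesicles were the only neighbours whose ranges did not overlap.

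Camk4, the nuclear kinase, varied widely within the groups. Its CPM was 36.0, 8.44 and 4.25 in Control and 11.6, 3.49 and 6.23 in Glutamate. Memantine ranged from 2.37 to 16.6 CPM, and the 3 groups given secreted material together from 1.33 to 12.3. Control 1, the library with the most ribosomal RNA, was higher than all others, and all neighbours in the order of the group means overlapped. The range of Glutamate_BPC (2.71 to 3.90 CPM) lay just below that of Control, whose lowest library was at 4.25 CPM. Over the 18 libraries the log2 CPM of Camk4 had a Pearson r of 0.66 with the log2 share of ribosomal RNA and of -0.76 with the log2 library total, which is a description over libraries that share both properties.

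Ppp3ca encodes the alpha isoform of the catalytic subunit of calcineurin. Its CPM was 545, 177 and 109 in Control and 84.0, 166 and 136 in Glutamate. In Memantine it was 120, 219 and 58.0. It was 72.2, 82.6 and 72.5 in Glutamate_vesicles, 83.8, 77.2 and 71.3 in Glutamate_secret, and 78.9, 89.5 and 54.5 in Glutamate_BPC. Control and Glutamate overlapped, since only Control 1 stood far above the rest, while the groups given vesicles or secreted material clustered at the low end. By group mean the order was Control, Memantine, Glutamate, Glutamate_secret, Glutamate_vesicles and Glutamate_BPC, and the step from Glutamate to Glutamate_secret was the only one between neighbours without overlap.

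Nrgn was at the limit of detection. It had 1 count in Control 1, against 111 and 44 in the other two Control libraries, and 1 count in Glutamate 2. Its CPM was 0.286, 5.45 and 2.37 in Control and 2.32, 0.0635 and 0.681 in Glutamate. Over the other 4 groups it ran from 0.144 to 3.44. No neighbouring groups were separated, and the Control libraries alone spanned the whole range of the group means (0.499 to 2.70 CPM).

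Hpca, the neuronal calcium sensor, had 25.1, 39.9 and 33.9 CPM in Control and 16.8, 7.36 and 12.6 CPM in Glutamate. Memantine gave 42.1, 23.9 and 12.9 CPM. The values were 19.2, 13.1 and 11.8 in Glutamate_vesicles, 17.0, 6.99 and 7.42 in Glutamate_secret, and 16.4, 10.7 and 13.6 in Glutamate_BPC. As for Camk2b, all Control libraries were above all libraries of the 4 glutamate groups without memantine, and Memantine spanned both levels. The group means ran from Control (33.0 ± 7.41 CPM) over Memantine (26.3 ± 14.7), Glutamate_vesicles, Glutamate_BPC and Glutamate to Glutamate_secret (10.5 ± 5.67), with overlap at every step.

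Calb2 was the buffer with the widest gap to Control. Its CPM was 93.4, 102 and 85.8 in Control and 37.5, 15.2 and 25.9 in Glutamate. Memantine gave 104, 51.5 and 25.7 CPM. The values were 43.8, 18.9 and 25.5 in Glutamate_vesicles, 27.6, 9.73 and 24.1 in Glutamate_secret, and 35.9, 20.0 and 28.1 in Glutamate_BPC. The lowest Control library stood above every library of these 4 glutamate groups, and Memantine spanned both levels. The order of the means was Control (93.8 ± 8.25), Memantine (60.6 ± 40.2), Glutamate_vesicles, Glutamate_BPC, Glutamate and Glutamate_secret (20.5 ± 9.45), and neighbours overlapped throughout.

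Calb1 differed from Calb2 in how the groups given secreted material were placed. Its CPM was 35.4, 18 and 17.1 in Control and 13.9, 5.02 and 6.81 in Glutamate. Memantine gave 16.3, 13.4 and 11.6 CPM, which was the narrowest Memantine spread of the 8 genes relative to its mean. The values were 8.97, 5.82 and 5.88 in Glutamate_vesicles, 17.8, 7.30 and 14.1 in Glutamate_secret, and 19.8, 8.30 and 8.35 in Glutamate_BPC. Control was separated from Glutamate, Memantine and Glutamate_vesicles, but it overlapped with Glutamate_secret and Glutamate_BPC. Control and Memantine were the only neighbours in the order of the means without overlap.

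**Figure D1:**
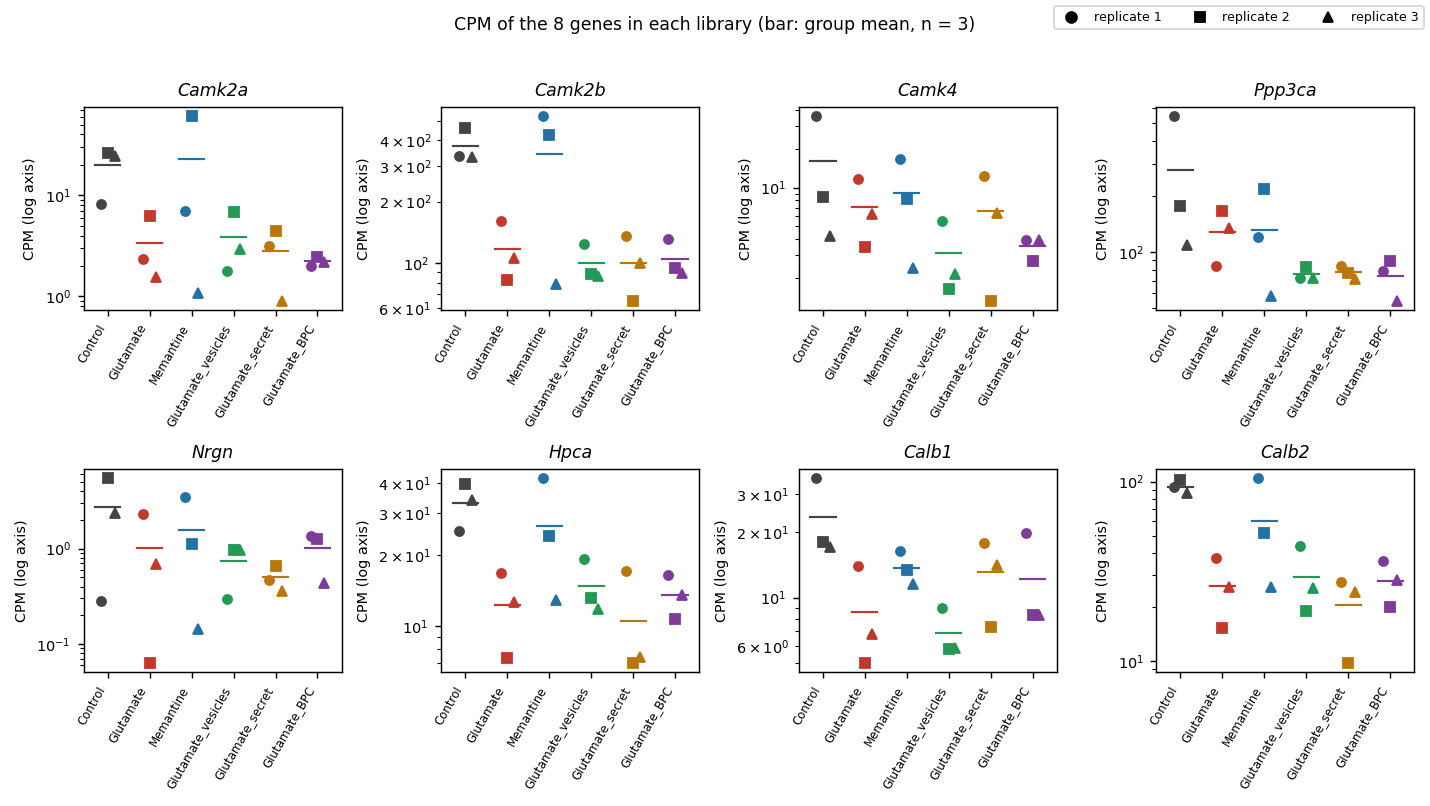
CPM (log axis) of the 8 genes in each of the 18 libraries, by group, with the replicate number as the marker and the group mean as a bar (n = 3). Camk2b, Hpca and Calb2 lie highest in the Control libraries and in Memantine libraries 1 and 2, and Memantine library 3 sits at the level of the Glutamate libraries (79.0, 12.9 and 25.7 CPM).

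The first comparison, Glutamate against Control, asks how the glutamate model itself changed these genes. The estimates of all 8 were lower in Glutamate, with a median log2 fold change of -1.47, against 0.085 over all genes tested. None of the 8 was called by edgeR's quasi-likelihood test at an adjusted p below 0.05, and neither was any other gene (0%). At an unadjusted p below 0.05, 5 of 8 genes were lower, Camk2a, Camk2b, Hpca, Calb1 and Calb2, where 5.97% of all genes tested were. The same 5 had ranges that did not overlap between the groups, lower in Glutamate, as had 7.76% of all genes. Without Control 1, 4 of 8 passed the unadjusted threshold, beside 1189 of 14677 genes in either direction.

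The largest estimate was that of Camk2a, at a log2 fold change of -2.53 (SE 1.04, adjusted p 0.512 by edgeR). Calb2 had -1.84 (SE 0.53, adjusted p 0.292), and Camk2b had -1.69 (SE 0.53, adjusted p 0.336). Calb1 had -1.45 (SE 0.50, adjusted p 0.386) and Hpca -1.43 (SE 0.48, adjusted p 0.364). Ppp3ca, at -1.11 (95% interval -2.25 to 0.03), Camk4, at -1.17 (-3.06 to 0.71), and Nrgn, at -1.50 (-3.88 to 0.89), could not be told from no difference. The estimate of Camk4 rested on Control 1, without which it was 0.16, and that of Ppp3ca was -0.16 without this library.

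Of the other tools, DESeq2 called Calb2 (adjusted p 0.0399) and no other of the 8, among 1.61% of all genes, and edgeR's likelihood-ratio test called 0 of 8, among 0.313%. In a bulk culture, a lower level may mean fewer cells that express a gene or less of its RNA per cell, and these cannot be told apart.

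**Figure D2:**
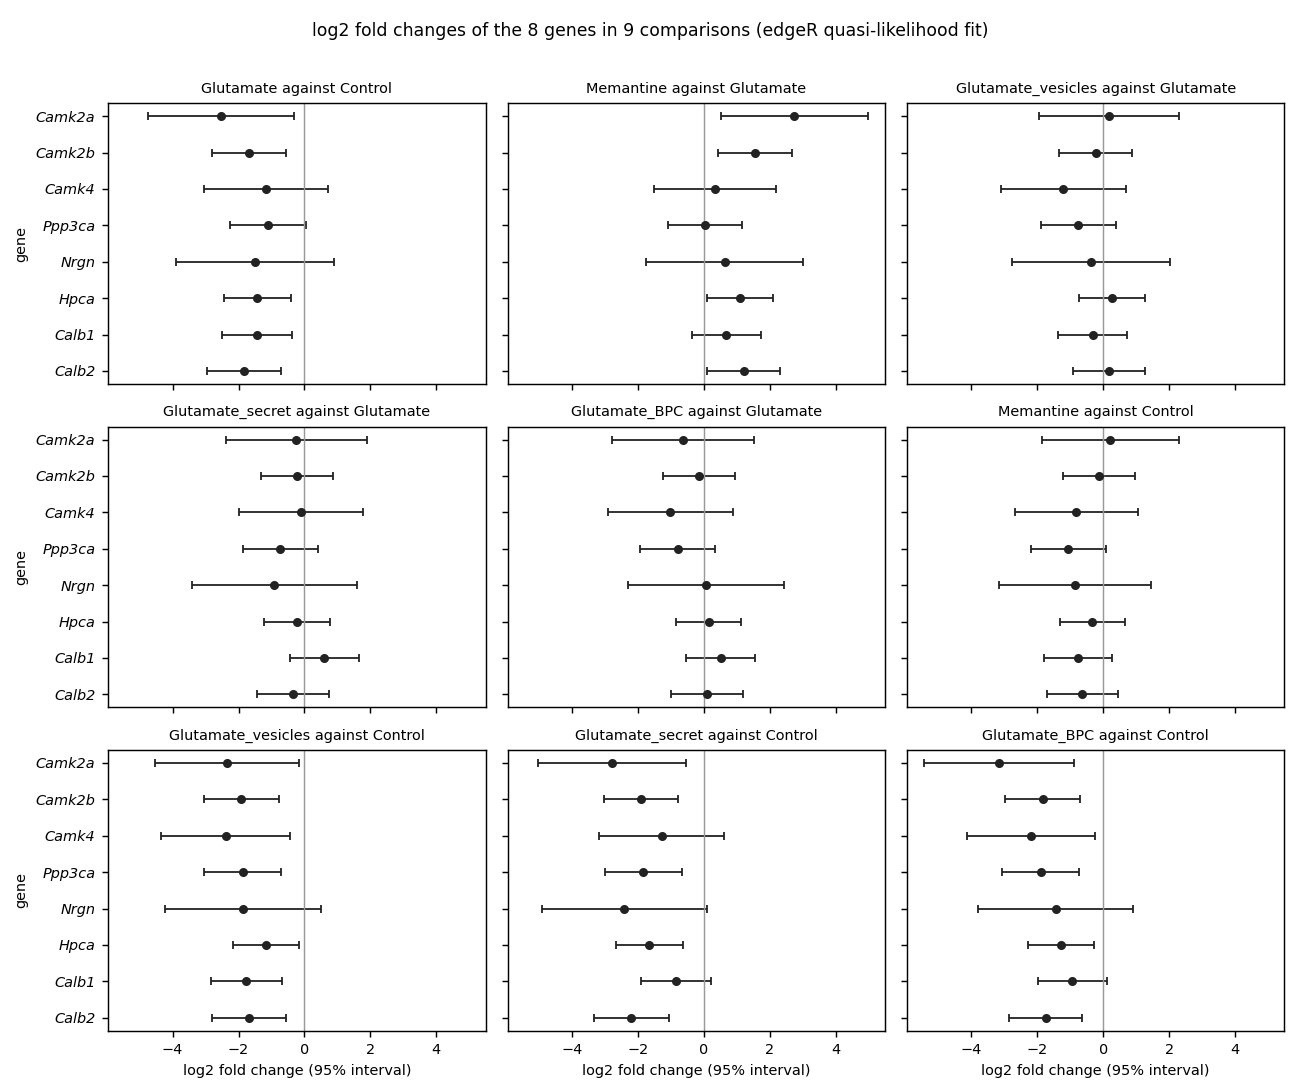
The log2 fold change of each gene (point) with its 95% interval (bar) in the 9 comparisons, from the edgeR fit of all 18 libraries. Against Control, the intervals of Camk2a, Camk2b, Hpca and Calb2 exclude 0 in Glutamate and in the 3 groups given vesicles or secreted material, and against Glutamate only Memantine has intervals that exclude 0 (Camk2a, Camk2b, Hpca and Calb2).

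Memantine against Glutamate asks whether the receptor blocker altered these levels within the model. All 8 estimates were higher in Memantine, with a median of 0.89, against -0.020 over all genes. The quasi-likelihood test of edgeR called none of the 8 (0% of all genes), DESeq2 called none (0.0139%), and the likelihood-ratio test called none (0%). At an unadjusted p below 0.05, 4 of 8 were higher, Camk2a, Camk2b, Hpca and Calb2, where 4.88% of all genes were. None of the 8 had ranges without overlap, which 1.74% of all genes had in the higher direction.

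The estimates were 2.75 for Camk2a (SE 1.05, adjusted p 0.688 by edgeR), 1.56 for Camk2b (SE 0.53, adjusted p 0.621), 1.21 for Calb2 (SE 0.52, adjusted p 0.868) and 1.10 for Hpca (SE 0.47, adjusted p 0.868). Memantine 1 and 2 were above the Glutamate libraries of the same number for all 8 genes. Memantine 3 was below Glutamate 3 for 6 of the 8, with Hpca (0.03 on the log2 scale) and Calb1 (0.75) as the exceptions. Without Memantine 3, Camk2b was called, at a log2 fold change of 2.03 (adjusted p 0.0245 by edgeR), among 1.73% of all genes. Camk4 turned from 0.35 to -0.43 and Nrgn from 0.64 to -0.63 without Memantine 1, Ppp3ca turned from 0.04 to -0.53 without Memantine 2 and to -0.19 without Glutamate 1, and Camk2a dropped to 0.22 without Memantine 2.

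**Figure D3:**
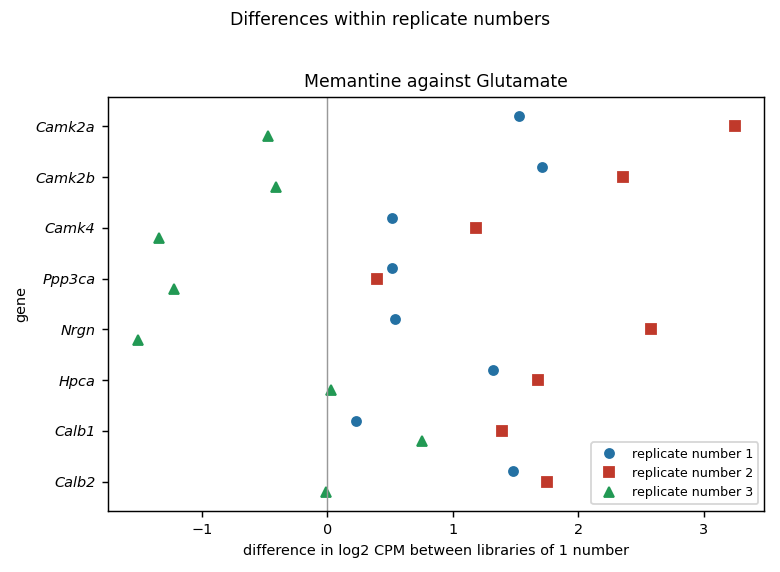
Difference in log2 CPM between the 2 libraries of a replicate number for each gene, Memantine minus Glutamate. Numbers 1 and 2 lie above 0 for all 8 genes while number 3 lies below 0 for 6.

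Memantine against Control places the same libraries against the untreated cultures. Of the 8 estimates, 7 were below 0 and the median was -0.70, against 0.10 over all genes. None of the 8 reached an unadjusted p below 0.05 (1.12% of all genes in either direction), and none was called by edgeR's quasi-likelihood test (0%), its likelihood-ratio test (0%) or DESeq2 (0%). Calb1 was the only one of the 8 whose ranges did not overlap, lower in Memantine at a log2 fold change of -0.77 (95% interval -1.81 to 0.28), as for 1.19% of all genes. Camk2b stood at -0.12 (-1.22 to 0.97), an interval wide enough to hold a change of 0.97 upward or -1.22 downward on the log2 scale.

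The groups given vesicles or secreted material were first set against Glutamate, which asks whether the material altered the genes within the model. For Glutamate_vesicles the median of the 8 estimates was -0.27, against -0.012 over all genes. For Glutamate_secret it was -0.24, against -0.0095, and for Glutamate_BPC -0.045, against -0.047. Without Glutamate 1 these 3 medians turned to 0.15, 0.075 and 0.30, and without Glutamate_BPC 3 that of Glutamate_BPC was 0.026. None of the 8 reached an unadjusted p below 0.05 in any of the 3 comparisons, where 1.08%, 0.681% and 1.07% of all genes did, respectively. The quasi-likelihood test called none of the 8 and no gene in these comparisons (0% each). DESeq2 called none of the 8, among 0.0209% of genes for Glutamate_vesicles, 0% for Glutamate_secret and 0.00696% for Glutamate_BPC, and the likelihood-ratio test called none, among 0.0139%, 0% and 0% of genes.

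Ppp3ca was the only one of the 8 with separated ranges in these comparisons. Its ranges did not overlap with Glutamate in Glutamate_vesicles (3.38% of all genes were separated downward) or in Glutamate_secret (2.01%), with log2 fold changes of -0.76 (95% interval -1.90 to 0.37) and -0.73 (-1.87 to 0.40). The separation from Glutamate_secret was thin, since library 1 was at 84.0 CPM in Glutamate and at 83.8 CPM in Glutamate_secret. In Glutamate_BPC it was -0.79 (-1.93 to 0.34), with overlap, and none of the 8 was separated there in either direction (7.13% of all genes). Camk4 had estimates of -1.21 (-3.11 to 0.68), -0.11 (-1.98 to 1.76) and -1.02 (-2.91 to 0.87) in the same order. Calb1 was at -0.32 (-1.36 to 0.73) in Glutamate_vesicles, 0.60 (-0.45 to 1.66) in Glutamate_secret and 0.51 (-0.54 to 1.55) in Glutamate_BPC.

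For Camk2b the intervals against Glutamate were -1.33 to 0.87, -1.32 to 0.88 and -1.25 to 0.95, and for Calb2 they were -0.92 to 1.25, -1.45 to 0.73 and -0.99 to 1.19. The estimates of Camk2b and Calb2 lay between -0.36 and 0.17. An unadjusted p above the threshold does not show that the levels were alike, and these intervals still allow changes of about 1 on the log2 scale in either direction.

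Against Control, the 3 groups had lower levels of most of the 8 genes, and since these comparisons and that of Glutamate share the same Control libraries they are not independent of each other. In Glutamate_vesicles all 8 estimates were negative, with a median of -1.87 (0.035 over all genes), 7 of 8 were lower at an unadjusted p below 0.05 (7.61% of all genes), and 6 of 8 had ranges without overlap (9.83%). In Glutamate_secret all 8 were negative, with a median of -1.87 (0.061 over all genes), 5 of 8 passed the unadjusted threshold (7.61%), and 5 of 8 were separated (9.07%). In Glutamate_BPC all 8 were negative, with a median of -1.79 (-0.059 over all genes), 6 of 8 passed (7.42%), and 6 of 8 were separated (12.7%). Without Control 1, the library with the most ribosomal RNA, 5, 5 and 4 of 8 passed the unadjusted threshold in these 3 groups. Among all 14677 genes then tested, 1194, 1952 and 1305 did so in either direction.

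None of the 8 was called by the quasi-likelihood test of edgeR in these comparisons, where it called 0.0139% of all genes for Glutamate_vesicles, 0% for Glutamate_secret and 0% for Glutamate_BPC. DESeq2 called 4 of 8 in Glutamate_vesicles (Camk2b, Ppp3ca, Calb1 and Calb2, among 3.66% of genes), 4 of 8 in Glutamate_secret (Camk2b, Ppp3ca, Hpca and Calb2, among 3.18%) and 2 of 8 in Glutamate_BPC (Camk2b and Ppp3ca, among 1.82%). The likelihood-ratio test called 0 of 8 in Glutamate_vesicles (1.11%), 2 of 8 in Glutamate_secret (Camk2b and Calb2, 1.55%) and 0 of 8 in Glutamate_BPC (0.424%). Same-numbered libraries of Glutamate_vesicles and Control deviated together from their group means (smallest r 0.21). With the replicate number as a block, edgeR called Camk2b (-1.97, adjusted p 0.0315), Calb1 (-1.71, adjusted p 0.0233) and Calb2 (-1.83, adjusted p 0.0266) in Glutamate_vesicles, among 3.74% of all genes. The block was fitted over all 18 libraries with 1 common effect per number. Not all groups deviated together by number: for number 3, Control and Glutamate_secret had an r of -0.45.

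The CaMKII subunits had estimates below 0 in all 3 groups. Camk2b had log2 fold changes of -1.92 (SE 0.53), -1.91 (SE 0.53) and -1.84 (SE 0.53) in Glutamate_vesicles, Glutamate_secret and Glutamate_BPC, with adjusted p of 0.194, 0.174 and 0.295 by edgeR. Camk2a had -2.35 (SE 1.03), -2.77 (SE 1.06) and -3.16 (SE 1.07). Calb2 was at -1.68 (SE 0.52), -2.20 (SE 0.53) and -1.75 (SE 0.53), and its adjusted p of 0.133 in Glutamate_secret was the smallest of any of the 8 genes in the 9 comparisons. Ppp3ca was at -1.87, -1.84 and -1.90 (SE 0.55 each), and without Control 1 these became -0.92, -0.89 and -0.95. Calb1, at -1.77 (SE 0.50) in Glutamate_vesicles, was at -0.85 (SE 0.49) in Glutamate_secret and -0.94 (SE 0.49) in Glutamate_BPC, neither of which passed the unadjusted threshold.

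A test of any difference among the 6 groups called none of the 8 by the quasi-likelihood test (0.00695% of all genes), and 6 of 8 had an unadjusted p below 0.05, where 7.75% of all genes did. Camk2b had the smallest adjusted p (0.144 by edgeR), followed by Calb2 (0.169) and Camk2a (0.276), while Camk4 and Nrgn did not pass the unadjusted threshold. The same test called 4 of 8 by likelihood ratio (4.08% of all genes), 5 of 8 by DESeq2 (4.99%) and, without Memantine 3, 3 of 8 by quasi-likelihood (3.41%). Without Control 1, 4 of 8 had an unadjusted p below 0.05 by quasi-likelihood, beside 1135 of 14677 genes.

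The further genes of the pathway were taken from 6 lists with 60 names, chosen with earlier results of these data known, and 54 were tested. In Glutamate against Control, 20 of the 54 (37.0%, against 5.97% of all genes) were lower and 0 higher at an unadjusted p below 0.05, and none was called. By list the counts of lower genes were 2 of 6 for calmodulin and its buffers, 5 of 11 for the other CaM kinases, 4 of 8 for calcineurin subunits and regulators, 5 of 10 for neuronal calcium sensors, 1 of 7 for other calcium buffers, and 3 of 12 for proteins downstream. The medians of these lists were -1.01, -1.06, -0.61, -1.42, 0.025 and -0.53.

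Among the kinases, Camk2g, a CaMKII subunit found in many tissues, had a log2 fold change of -1.25 (SE 0.37, unadjusted p 0.00396, adjusted p 0.296 by edgeR) and Camkk2, the kinase that activates Camk4, had -1.06 (SE 0.36, adjusted p 0.373), while Camk2d was at -0.45 (SE 1.34). Of the calcineurin genes, the catalytic subunit Ppp3cb was at -1.08 (SE 0.46), the regulatory subunit Ppp3r1 at -0.68 (SE 0.29) and the inhibitor Rcan2 at -1.06 (SE 0.38). All 3 had ranges below Control without overlap, as had 7.76% of all genes. Rcan1, an inhibitor of calcineurin whose gene is itself a target of NFAT, was at 0.61 (95% interval -0.14 to 1.37). Vsnl1, a calcium sensor of the family of Hpca, had -1.78 (SE 0.55, adjusted p 0.329). Pcp4 (-0.97, SE 0.83), Pvalb (0.59, SE 1.11) and Creb1 (0.77, SE 0.88) did not pass the unadjusted threshold.

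In Memantine against Glutamate, 17 of the 54 (31.5%, against 4.88% of all genes) were higher and 0 lower at an unadjusted p below 0.05, with Camkk2 at 1.00 (SE 0.36), Rcan2 at 1.21 (SE 0.38) and Vsnl1 at 1.60 (SE 0.55) among them. In the comparisons of Glutamate_vesicles, Glutamate_secret and Glutamate_BPC with Glutamate, 0, 1 and 1 of the 54 were higher and none was lower. Of all genes, 0.479%, 0.319% and 0.403% were higher and 0.597%, 0.361% and 0.667% lower. Against Control, 24, 23 and 23 of the 54 were lower (44.4%, 42.6% and 42.6%, against 7.61%, 7.61% and 7.42% of all genes). In each, 1 of the 54 was higher (3.99%, 4.14% and 3.92% of all genes). None of the 54 was called in any of the 9 comparisons.

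**Figure D4:**
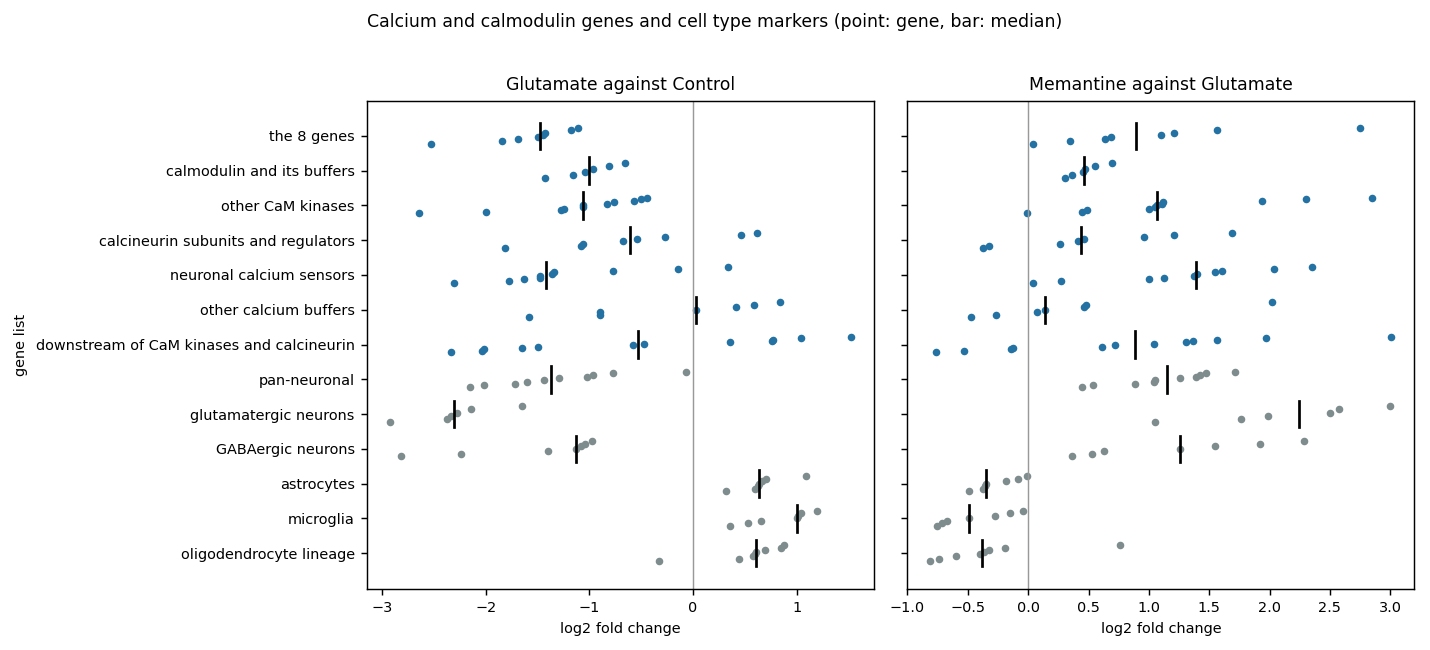
log2 fold changes of single genes (points) by list, with the list's median (bar), for Glutamate against Control (left) and Memantine against Glutamate (right); the calcium and calmodulin lists are in blue and the cell type markers in grey. The medians of the 8 genes are -1.47 and 0.89, those of the pan-neuronal markers -1.37 and 1.15, and those of the astrocyte markers 0.63 and -0.35.

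Markers of neurons had estimates of the same sign as the 8 genes. In Glutamate against Control all 10 pan-neuronal markers had negative estimates, with a median of -1.37. At an unadjusted p below 0.05, 4 of these 10 were lower, where 5.97% of all genes tested were. All 6 markers of glutamatergic neurons were negative, with a median of -2.30, and so were all 7 of GABAergic neurons, with a median of -1.13. At the same threshold 5 of 6 glutamatergic and 5 of 7 GABAergic markers were lower. Slc17a7, the vesicular glutamate transporter of cortical neurons, was at -2.92 (SE 0.85), Snap25, a synaptic fusion protein, at -2.15 (SE 0.82), and Gad1, which makes GABA, at -1.13 (SE 0.44). The summed CPM of the pan-neuronal list was 2631 to 4461 in Control, 703 to 2041 in Glutamate, 1079 to 5241 in Memantine and 732 to 2004 over the other 3 groups. None of these markers was at 0 in any group. In Memantine against Glutamate, 3 of 10 pan-neuronal, 5 of 6 glutamatergic and 4 of 7 GABAergic markers passed that threshold upward (4.88% of all genes). Against Control, 6, 5 and 3 of 10 pan-neuronal markers were lower in Glutamate_vesicles, Glutamate_secret and Glutamate_BPC. For glutamatergic markers these counts were 6, 5 and 6 of 6, and for GABAergic markers 3, 5 and 3 of 7 (7.61%, 7.61% and 7.42% of all genes).

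Glial markers had the opposite sign. All 7 astrocyte markers had positive estimates in Glutamate against Control, with a median of 0.63, and 0 passed the unadjusted threshold; Gfap, the astrocyte filament, was at 1.09 (SE 0.67). Their summed CPM was 2159 to 5611 in Control and 5234 to 9530 in Glutamate. All 7 microglial markers and 7 of 8 of the oligodendrocyte lineage were positive, with medians of 1.01 and 0.61. Of these, 0 microglial markers and 1 of the oligodendrocyte lineage passed the unadjusted threshold upward (2.13% of all genes). In the oligodendrocyte lineage, 2 had ranges above Control without overlap (4.48% of all genes). In Memantine against Glutamate the 7 astrocyte and the 7 microglial markers were negative, with medians of -0.35 and -0.49. So were 7 of 8 of the oligodendrocyte lineage, with a median of -0.38. The part of these shifts in the values of the 8 genes was not tested.

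The genes were also set against the neuronal markers of the same library. The log2 CPM of Camk2b exceeded the mean of the 10 pan-neuronal markers by 1.45 ± 0.48 among the Control libraries (SD, n = 3), by 0.99 ± 0.18 among the Glutamate libraries and by 1.45 ± 0.27 under memantine. Calb2 lay below that mean, at -0.54 ± 0.39 in Control, -1.19 ± 0.40 in Glutamate and -0.88 ± 0.52 in Memantine. With the secreted material it was at -1.47 ± 0.42 (Glutamate_secret), -0.95 ± 0.33 (Glutamate_BPC) and -0.77 ± 0.48 (Glutamate_vesicles). Camk2a went from -2.94 ± 1.30 in Control to -4.23 ± 1.17 in Glutamate, while Ppp3ca (0.69 ± 0.79 and 1.14 ± 0.93) and Camk4 (-3.62 ± 1.14 and -3.12 ± 0.51) were higher in Glutamate on this scale, by less than their spread. Hpca was at -2.06 ± 0.69 in Control and -2.26 ± 0.39 in Glutamate, and Calb1 at -2.61 ± 0.35 and -2.82 ± 0.36, shifts that are smaller than the spread between replicates. The Control and Glutamate ranges also overlapped for Camk2a (-4.42 to -1.97 and -5.01 to -2.88) and Camk2b (0.89 to 1.78 and 0.80 to 1.16). For Calb2 they overlapped narrowly (-0.94 to -0.16 and -1.63 to -0.86). Nrgn was at -6.22 ± 2.17 in Control and -6.22 ± 1.44 in Glutamate. The mean log2 CPM of the 10 markers was 7.09 ± 0.46 in Control, 5.82 ± 0.43 in Glutamate and 6.58 ± 1.23 in Memantine. Over the 18 libraries the Pearson r with this mean was 0.97 for Camk2b, 0.88 for Calb2, 0.84 for Hpca, 0.81 for Camk4, 0.76 for Calb1, 0.73 for Ppp3ca, 0.68 for Camk2a and 0.52 for Nrgn.

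**Figure D5:**
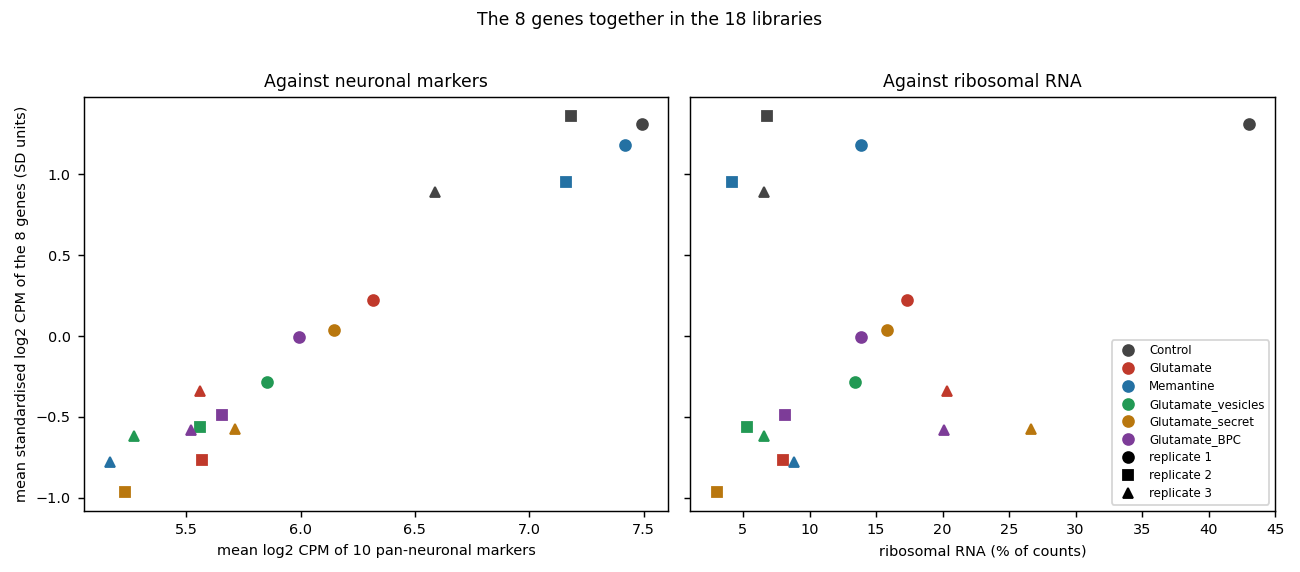
Mean standardised log2 CPM of the 8 genes in each of the 18 libraries (in SD units) against the mean log2 CPM of 10 pan-neuronal markers (left) and against the share of ribosomal RNA in percent (right). The 3 Control libraries and Memantine 1 and 2 lie at 0.89 to 1.36 on the vertical axis and Memantine 3 at -0.78, and Control 1 stands alone at 43.0% ribosomal RNA.

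The 8 genes were also set against each other, without a background of other gene pairs. The Pearson r of their log2 CPM over the 18 libraries ran from 0.062 to 0.94 over the 28 pairs, with a median of 0.61, and after the group means were removed it ran from -0.27 to 0.86, with a median of 0.44. The genes most like the mean of the 8 over the 18 libraries were Matcap1 (r = 0.98), Nell2 (0.97), Atcay (0.97), Dclk3 (0.97) and Fam131b (0.97). Nell2 followed the same division of the groups, with 242 to 401 CPM in Control, 58.0 to 107 in Glutamate and 62.2 to 348 in Memantine. The closest single partner was Gria1, an AMPA receptor subunit, for Camk2a (r = 0.98), Nell2 for Camk2b (0.99), Scn2a, a neuronal sodium channel, for Camk4 (0.96), Zfp717 for Ppp3ca (0.96), Tsc22d1 for Nrgn (0.82), Map3k10 for Hpca (0.98), Lypd6b for Calb1 (0.93) and Rasal1 for Calb2 (0.96). These are the highest of many correlations over libraries that share their groups and their content of neuronal RNA, and they are given as a description.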

How the data were processed

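RNA was sequenced from 18 libraries. The sources name different kits and instruments. After trimming (Trimmomatic, Cutadapt), the authors estimated counts with Salmon against Ensembl rat transcripts (rn6, the genome as decoy) and summed them to genes with tximport. STAR is also named in the submitters' processing notes, and the sources used here give no version of Salmon. The deposited values are expected counts, that is estimated counts per gene without scaling. The strand setting of the counting is not given, so that it is not known how reads of overlapping genes were assigned.

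Counts were rounded to whole numbers and tested with edgeR 4.0.16 in R 4.3.3. The design had been written for counts and was kept after rounding. The filter filterByExpr (minimum count 10, minimum total 15) left 14398 of 31463 genes, library sizes were scaled by TMM, and all 18 libraries entered 1 model with a mean for each group. The two-sided quasi-likelihood test was used with Benjamini-Hochberg adjustment over all genes tested, and a gene was called at an adjusted p below 0.05. Log2 CPM used a prior count of 2. Alternatives were the likelihood-ratio test, which the study used, DESeq2 1.42.0, RLE size factors, no filter, the replicate number as a block, the log2 share of ribosomal RNA (78 rows) as a covariate, fits of only the groups compared, and leaving out each library. Scripts were tested on simulated data.

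Groups came from the labels. The 8 genes are always named, with 12 fixed pathway genes (1 is not reported here), 4 fixed markers and the genes of most similar pattern; the genes and lists were chosen with earlier results of these data known. Numbers were taken to pair the libraries where the deviations of all same-numbered libraries from their group means had r above 0.1, which held for Memantine, Glutamate_secret and Glutamate_BPC against Glutamate (smallest r 0.57, 0.44 and 0.45) and for Glutamate_vesicles against Control (0.21). Promoter windows were taken from RefSeq (GRCr8) by symbol.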

Additional observations from a re-analysis of the deposited data

How the results depend on the processing

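The direction of the 8 estimates against Control was kept under all settings in Glutamate_vesicles and Glutamate_BPC, while the number of the 8 genes called depended on the tool. DESeq2 called 1 in Glutamate, 4 in Glutamate_vesicles, 4 in Glutamate_secret and 2 in Glutamate_BPC against Control, and 5 for any difference among the 6 groups. The likelihood-ratio test called 2 in Glutamate_secret and 4 for any difference. With the ribosomal RNA covariate 3 were called in Glutamate_secret (4.04% of all genes) and 2 for any difference (2.67%). RLE size factors, no filter and fits of only the groups compared left all counts at 0. Leaving out 1 library gave 0 to 1 called in Memantine against Glutamate and 0 to 3 for any difference, the higher values without Memantine 3, and 0 in all other comparisons.

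With the replicate block, 3 were called in Glutamate_vesicles against Control, where pairing by number was taken from correlations in these data, not from labels. The block changed no call in the comparisons with Glutamate that were treated as paired by that rule. It was 1 common effect per number over all 18 libraries, so that these calls do not rest on the groups treated as paired alone. In the comparisons where the libraries share only a number, the block gave 2 called in Glutamate (Calb1 and Calb2, among 1.15% of all genes, smallest r -0.12), 4 in Glutamate_secret (Camk2a, Camk2b, Hpca and Calb2, among 4.86%, smallest r -0.45) and 2 in Glutamate_BPC (Camk2b and Calb2, among 1.74%, smallest r -0.26), and 5 for any difference (3.45%). Under the block Ppp3ca turned to -0.10 in Memantine against Glutamate and Camk2a to -0.58 in Memantine against Control.

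With the ribosomal RNA covariate the sign turned for Camk2a (-0.71) and Camk4 (0.21) in Memantine against Control, for Camk2a (-0.53) and Calb1 (0.018) in Glutamate_vesicles against Glutamate, and for Nrgn (-0.038) in Glutamate_BPC against Glutamate. The cause was not tested.

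Leaving out single libraries turned the sign of some estimates that had not been called. Against Control, Camk4 ran from -1.71 to 0.16 in Glutamate and from -2.10 to 0.048 in Glutamate_secret, in both cases positive without Control 1. In Memantine against Control, the ranges were -2.31 to 0.79 for Camk2a, -0.57 to 0.36 for Camk2b, -1.60 to 0.50 for Camk4, -2.13 to 0.10 for Nrgn and -0.84 to 0.021 for Hpca. In Memantine against Glutamate they were -0.43 to 0.89 for Camk4, -0.53 to 0.39 for Ppp3ca and -0.63 to 2.09 for Nrgn. In Glutamate_vesicles against Glutamate they were -0.53 to 1.00 for Camk2a, -0.42 to 0.079 for Camk2b, -0.96 to 1.08 for Nrgn, -0.0012 to 0.56 for Hpca, -0.59 to 0.22 for Calb1 and -0.24 to 0.52 for Calb2. In Glutamate_secret against Glutamate they were -0.75 to 0.58 for Camk2a, -0.50 to 0.087 for Camk2b, -0.93 to 0.44 for Camk4, -1.51 to 0.53 for Nrgn and -0.77 to 0.063 for Hpca. In Glutamate_BPC against Glutamate they were -0.97 to 0.20 for Camk2a, -0.34 to 0.16 for Camk2b, -0.53 to 1.51 for Nrgn, -0.12 to 0.44 for Hpca, -0.041 to 1.04 for Calb1 and -0.18 to 0.45 for Calb2. Nrgn had 1 to 111 counts in a library and Camk2a as few as 5; the part of depth in their spread was not tested.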
